A study of Mus musculus with 19 samples.

Results

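The genes of activin, inhibin and anti-Müllerian hormone (AMH) signalling were followed across ovaries of mice that had lost the hedgehog ligands Dhh, Ihh or both. Their 10 members were named by gene: the hormone subunits Inha, Inhba and Inhbb, the binding proteins Fst and Fstl3, AMH itself (Amh) and its receptor Amhr2, and the activin receptors Acvr2a, Acvr2b and Acvr1b. All 10 had at least 1 Affymetrix probe set annotated to that gene alone, of 18193 genes with such a probe set on the array. They had 19 such probe sets, of which 17 passed the filter on low signals, and 1 further probe set that lists Acvr2a together with another gene was not used. All 10 members were tested, each through its probe set with the highest mean.

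Total RNA came from ovaries of female mice aged 2 months, in 19 arrays. The controls were 8 arrays labelled Ihh_Dhh_dhet, heterozygous for both genes, so the reference itself carried altered alleles and none of the groups is wild type. The mutants were 4 arrays labelled Dhh_KO, 4 labelled Ihh_KO and 3 labelled Ihh_Dhh_dKO (DKO), with the genes deleted in the ovary per the labels. The labels name neither the driver of the deletion nor the alleles of the other ligand in the single knockouts, and do not say whether each array was a separate animal, so p-values measure the spread between these arrays, which may be technical. A spiked-in bacterial transcript that every array carries (BioC, signal of its 3′ over its 5′ probe set) split the arrays into 2 hybridization sets that the labels do not mention: controls 1 to 4 with the DKO arrays at 0.987 to 1.06, and controls 5 to 8 with both single knockouts at 0.685 to 0.781. Each mutant was therefore set against the controls of its own set.

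Activins are dimers of inhibin beta subunits, and inhibins pair 1 beta subunit with the alpha subunit. Granulosa cells of growing follicles make both: activin acts within the follicle, and inhibin reaches the pituitary and lowers the secretion of follicle-stimulating hormone. Follistatin and follistatin-like 3 bind activin and keep it from its receptors, while AMH from small growing follicles acts through its own type II receptor and restrains the recruitment of primordial follicles. Dhh and Ihh also come from granulosa cells and signal to the surrounding stroma and theca, so the hormone genes among the members share a source cell with them. These whole-ovary arrays do not show which cells express the binding proteins and receptors.

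The deleted genes were read first. Controls had Dhh signals of 606 to 1371, whereas Dhh KO arrays had 5.1 to 25.4 and DKO arrays 3.8 to 14.2. Ihh KO 1 to 3 kept Dhh at 527 to 709, but the array labelled Ihh KO 4 read 2.96. Its Ihh signal was 108, against 12.5 to 43.5 on Ihh KO 1 to 3 and 108 to 168 on the Dhh KO arrays, so this array goes against its label. A second, dim Dhh probe set that lay under the filter read 46.9 on it, among the 41.9 to 68.1 of Ihh KO 1 to 3, while the Dhh KO arrays stood at 63.5, 16.2, 9 and 7.8 there. The array is kept in the values of Ihh KO below, and the calls, the members' changes and the list medians of Ihh KO are also given without it. How the probes lie relative to the deleted exons was not analysed here.

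Promoter windows were available for 8 of the 10 members. They were placed at an annotated RefSeq start of the gene on GRCm38.p6, from 250 bases before it to 50 bases after it. Whether that start is the main one of each gene was not analysed. CCACCCA, a core of the sites bound by the GLI proteins that end the hedgehog pathway, was found on either strand in 9.3% of all 32851 windows and in 0 of the 8 members. AGGTCA, the core bound by NR5A1 and related nuclear receptors of steroid-producing tissue, was in 16.3% of all windows and in 3 of the 8 members, Amhr2, Fstl3 and Inha; the longer AAGGTCA, which contains it, was in 4.72% of all windows and 1 member, Amhr2. The windows of Amhr2, which holds both, and of Inha are printed with AGGTCA in capitals, and that of Acvr1, the type I receptor whose values are given further on, holds neither motif and so has no capitals. A match describes these letters and is not evidence of binding. The Amhr2 window lies at chr15:102445117-102445416 on the plus strand, with the motif starting at position -230 from the gene's start. That of Inha lies at chr1:75507359-75507658 on the plus strand, with the motif at position -69 from the start used. Its first bases, read as codons, spell part of the inhibin alpha protein, so this window lies inside the gene. The Inha motif is therefore not in a promoter ahead of the coding sequence. The Acvr1 window lies at chr2:58566779-58567078 on the minus strand, with a GC content of 83.7% against 55.3% for the Amhr2 and for the Inha window.
Amhr2: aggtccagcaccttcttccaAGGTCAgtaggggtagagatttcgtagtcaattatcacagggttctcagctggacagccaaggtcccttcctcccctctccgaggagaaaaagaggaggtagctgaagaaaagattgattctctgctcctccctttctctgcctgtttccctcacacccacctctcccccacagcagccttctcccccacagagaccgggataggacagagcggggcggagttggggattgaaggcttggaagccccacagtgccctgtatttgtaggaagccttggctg
Inha: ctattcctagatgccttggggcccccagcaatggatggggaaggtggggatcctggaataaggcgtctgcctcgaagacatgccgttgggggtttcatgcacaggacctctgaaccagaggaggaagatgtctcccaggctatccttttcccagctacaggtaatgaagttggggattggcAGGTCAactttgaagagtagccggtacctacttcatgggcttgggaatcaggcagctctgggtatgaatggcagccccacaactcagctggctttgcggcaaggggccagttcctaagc
Acvr1: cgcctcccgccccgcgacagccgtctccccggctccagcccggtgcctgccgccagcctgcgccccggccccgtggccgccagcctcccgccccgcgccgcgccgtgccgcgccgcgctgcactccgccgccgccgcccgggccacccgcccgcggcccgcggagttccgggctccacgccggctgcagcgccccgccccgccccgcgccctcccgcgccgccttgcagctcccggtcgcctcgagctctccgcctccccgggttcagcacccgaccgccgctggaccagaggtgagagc

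None of the 10 members passed the test in any mutant group. Changes are log2 differences of the linear MAS5 signal plus 7.02, tested with limma over the 12379 genes above a filter on low signals, with Benjamini-Hochberg adjustment and a threshold of 0.05. Against the controls of the same set, 0 of 10 members were called in Dhh KO, 0 in Ihh KO and 0 in DKO, where 0%, 0.0162% and 3.02% of all genes were called (0, 2 and 374 genes). The deleted genes themselves missed this threshold in the single knockouts. Dhh in Dhh KO was at -5.37 (limma adjusted p = 0.119) and Ihh in Ihh KO at -2.18 (adjusted p = 0.0977), each below every control. In DKO both were called, Dhh at -6.20 (adjusted p = 0.00226) and Ihh at -2.06 (adjusted p = 0.0124). The absence of calls in the single knockouts is therefore weak information about the members. At an unadjusted p under 0.05 the count of members was again 0 in each, against 10.1%, 14% and 16.1% of all genes. On its main probe set no member lay wholly above or below its controls in any mutant group, which 5.46%, 6.28% and 13.2% of all genes did.

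The intervals bound how large a change could be. On the main probe sets the 95% interval lay within 2-fold in either direction for 10 of 10 members in Dhh KO and 10 in Ihh KO, and for 8 in DKO, with Fstl3 and Amh as the exceptions. Other probe sets of a member could reach further. That of a second Acvr2b probe set reached 2.38-fold in Dhh KO, 2.43-fold in Ihh KO and 2.1-fold in DKO. Over all genes the interval lay within 2-fold for 91%, 87.7% and 83.2%. Without the array labelled Ihh KO 4 the count in Ihh KO was 9, the Fstl3 interval then reaching a 2.11-fold lower level, against 84.4% of all genes. The median member change was 0.028 in Dhh KO, -0.056 in Ihh KO and 0.151 in DKO, beside -0.031, -0.021 and 0.022 over all genes tested. For Ihh KO without that array it was -0.13, beside -0.026 over all genes. A miss of the threshold does not show that a level was the same, and in whole-ovary RNA fewer cells of a type and less RNA per cell cannot be told apart.

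**Figure D1:**
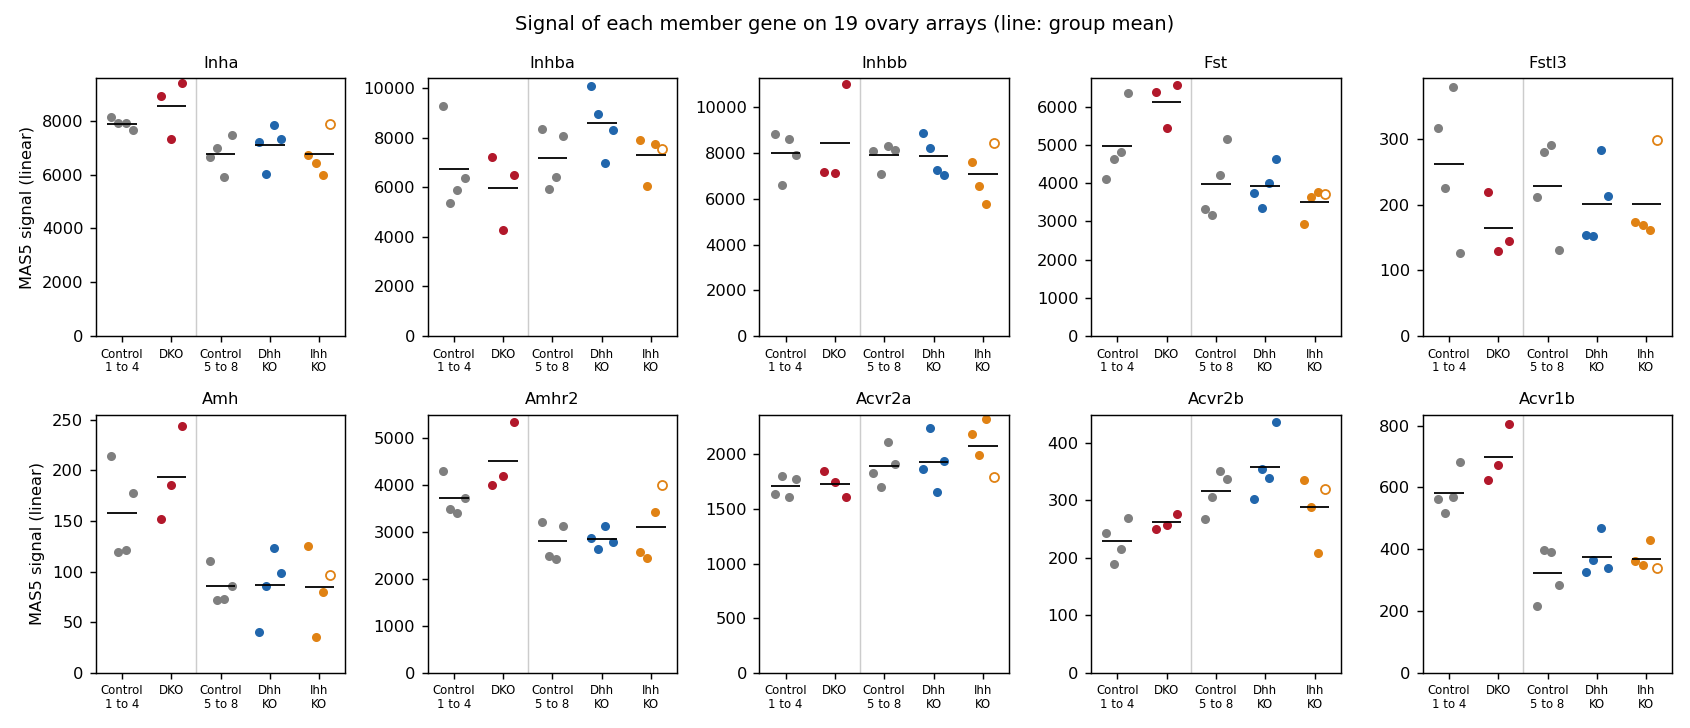
MAS5 signal (linear scale, from 0) of each of the 10 member genes on the 19 arrays, by group; each point is 1 array, the black line is the group mean, and the open circle is the array labelled Ihh KO 4. Left of the grey line stand controls 1 to 4 and DKO, right of it controls 5 to 8, Dhh KO and Ihh KO, and every mutant group overlaps the controls of its set.

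The hormone subunits were read first. Inha, the alpha subunit that turns a beta subunit into inhibin, had signals of 8122, 7905, 7915 and 7642 on controls 1 to 4 and of 8939, 7305 and 9399 on the DKO arrays. In the other set it was at 6658, 7005, 5891 and 7460.1 on controls 5 to 8, at 7205, 6039, 7856 and 7338 in Dhh KO, and at 6739, 6424, 5990.5 and 7870 in Ihh KO. DKO 2 lay below every control of its set and the other two DKO arrays above. The log2 change was 0.11 in DKO (SE 0.11, limma adjusted p = 0.691), 0.07 in Dhh KO (SE 0.10, adjusted p = 0.849) and -0.00 in Ihh KO (SE 0.10, adjusted p = 0.996), and the intervals reached at most 1.26-fold, 1.22-fold and 1.16-fold.

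Inhba encodes the beta A subunit of activin A and inhibin A. Its signals were 9293, 5357, 5902 and 6356.5 on controls 1 to 4 and 7208, 4269.5 and 6475 in DKO, so DKO 2 held the lowest value of that set and the controls spread over a wider range than their difference from DKO. In the other set the controls stood at 8332, 5923, 6389.7 and 8072, the Dhh KO arrays at 10093, 8953, 6981.5 and 8295, and the Ihh KO arrays at 7883, 6060.5, 7745 and 7534.5. Two-sided limma tests gave -0.17 in DKO (SE 0.19, adjusted p = 0.731), 0.26 in Dhh KO (SE 0.18, adjusted p = 0.649) and 0.03 in Ihh KO (SE 0.18, adjusted p = 0.955). Of the members, Inhba had the largest difference in Dhh KO, with 2 of 4 Dhh KO arrays above all 4 controls. A second Inhba probe set lay under the filter.

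Inhbb, the beta B subunit, was as variable within groups as between them. Controls 1 to 4 read 8820.2, 6592, 8638 and 7914.5 and the DKO arrays 7189, 7124 and 11006, the last the highest Inhbb signal of all 19 arrays. The controls of the other set read 8100.4, 7103, 8317 and 8133.5, Dhh KO 8867, 8229, 7264 and 7060.1, and Ihh KO 7621, 6545, 5753 and 8448, the last on the array labelled Ihh KO 4. Its log2 changes were 0.06 in DKO (adjusted p = 0.902), -0.01 in Dhh KO (adjusted p = 0.982) and -0.17 in Ihh KO (adjusted p = 0.604), the last -0.26 (adjusted p = 0.389) without that array. In the second Inhbb probe set DKO differed by 0.35 (SE 0.30), again with DKO 3 highest at 2322. There Ihh KO differed by -0.41 (SE 0.28, limma adjusted p = 0.545 among all probe sets) and Dhh KO by -0.18 (SE 0.28).

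Of the binding proteins, Fst had the lowest p of all members in DKO. Follistatin, its product, neutralises activin by wrapping around it. Signals were 4112, 4639.5, 4812 and 6375 on controls 1 to 4 and 6389, 5453 and 6569.7 in DKO: all 3 DKO arrays lay above 3 of the 4 controls, and control 4 lay among them. The change was 0.31 (SE 0.17, unadjusted p = 0.0735, adjusted p = 0.37), a ratio of 1.24 with an interval up to 1.58-fold. A second Fst probe set gave 0.23 (SE 0.21, adjusted p = 0.689 among all probe sets). With the replicate number of the labels as a block the change was 0.39 (adjusted p = 0.0725), not past the threshold. In a further fit, added after the data were seen, controls 5 to 8 were given the number of the control they resembled and the number was a block over all 19 arrays; Fst was then called in DKO, at 0.41 (SE 0.11, adjusted p = 0.0343), where 692 of 12379 genes were. Of the 36 alternatives run for DKO this was the only 1 in which a member was called. In the other set Fst stood at 3339, 3160.4, 4226 and 5170.3 on controls 5 to 8, at 3748, 3350.4, 4014 and 4651 in Dhh KO (0.01, SE 0.15) and at 2937, 3643, 3784 and 3717 in Ihh KO (-0.15, SE 0.15, adjusted p = 0.677).

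Fstl3, which binds activin and the related ligand myostatin, was dim and scattered. Its signals were 317.8, 225.6, 380 and 125.9 on controls 1 to 4 and 219.9, 129.1 and 144.7 in DKO, with control 4 below all DKO arrays. The DKO difference of -0.58 (SE 0.35, adjusted p = 0.453) was the largest of any member, at the 89.3rd percentile of all genes by size, and its interval reached a 2.49-fold lower level. The size rested on single arrays: the Fstl3 change in DKO was -0.37 without control 3 and -0.88 without control 4 (adjusted p = 0.755 and 0.137). Controls 5 to 8 were at 211.8, 280.3, 290.7 and 130.6, Dhh KO at 153.7, 151.7, 283.8 and 213.7, and Ihh KO at 173.8, 168.5, 161.6 and 298.3. Both single knockouts differed from these controls by -0.16 (SE 0.32), and Ihh KO by -0.36 (SE 0.34, adjusted p = 0.624) without the array labelled Ihh KO 4, which held the 298.3.

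AMH is made by granulosa cells of small growing follicles. Amh was near the filter of 69.4, at 214.1, 119.1, 121.5 and 177.4 on controls 1 to 4 and 151.5, 185.2 and 244.3 in DKO. DKO 3 lay above all controls and the other two among them. The change was 0.30 (SE 0.37, adjusted p = 0.756), with an interval from -0.47 to 1.06. For controls 5 to 8 Amh was at 110.8, 72.3, 72.9 and 85.9, Dhh KO at 40, 85.8, 123.2 and 98.5 (-0.05, SE 0.34), and Ihh KO at 125.2, 35.7, 79.9 and 97 (-0.11, SE 0.34). Both single knockouts held 1 array below every control of the set, at 40 and 35.7, and 1 above every control, at 123.2 and 125.2.

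Amhr2, the type II receptor that binds only AMH, was measured by 3 probe sets. On the main one controls 1 to 4 stood at 4309, 3494, 3400 and 3728 and the DKO arrays at 4014, 4196 and 5351, above 3 of the 4 controls and, for DKO 3, above all. The change was 0.27 (SE 0.16, adjusted p = 0.427) there, and 0.20 and 0.39 on the other two probe sets (adjusted p = 0.635 and 0.385). Amhr2 on controls 5 to 8 was at 3215, 2487, 2421.5 and 3126, Dhh KO at 2869, 2631, 3136.5 and 2780.5 (0.03, SE 0.14), and Ihh KO at 2565, 2449.8, 3425 and 4003 (0.13, SE 0.14, adjusted p = 0.724). Without the array labelled Ihh KO 4, which had the 4003, the Ihh KO change was -0.00 (SE 0.14).

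The activin receptors came next, the type II receptors Acvr2a and Acvr2b, which bind ligand, and the type I receptor Acvr1b, which then signals through Smad2 and Smad3. Acvr2a had signals of 1638, 1803.5, 1613 and 1778.5 on controls 1 to 4 and 1845, 1746 and 1608.5 in DKO (0.02, SE 0.11, interval within 1.19-fold). Controls 5 to 8 were at 1829, 1706, 2118 and 1910.3, Dhh KO at 1869, 2246, 1658 and 1945 (0.03, SE 0.10), and Ihh KO at 2186, 1999, 2325 and 1794.5 (0.13, SE 0.10, adjusted p = 0.572). Without the array labelled Ihh KO 4, the lowest of that group, the Ihh KO change was 0.20 (SE 0.10, adjusted p = 0.354). The second Acvr2a probe set had all 3 DKO arrays, at 664.4 to 724.9, above controls 1 to 4, at 547.5 to 619.6, with a change of 0.23 (SE 0.12, adjusted p = 0.399 among all probe sets).

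Acvr2b signals were 243.9, 189.1, 215.1 and 269.3 on controls 1 to 4 and 250.6, 257.6 and 276.4 in DKO (0.19, SE 0.17, adjusted p = 0.634). In the other set they were 267.1, 305.3, 351.7 and 337.4 on controls 5 to 8, 303.1, 354.9, 339.2 and 436 in Dhh KO (0.18, SE 0.16), and 335.7, 289.2, 209.1 and 319.6 in Ihh KO (-0.14, SE 0.16). The other Acvr2b probe sets, both dimmer, differed from each other in sign. They gave 0.44 (SE 0.40) and -0.35 (SE 0.19) in Ihh KO, and 0.41 (SE 0.40) and -0.01 (SE 0.19) in Dhh KO. In DKO they gave -0.16 (SE 0.43) and 0.15 (SE 0.21). Acvr1b was at 561.8, 517, 570.4 and 683.2 on controls 1 to 4 and 622.6, 673 and 804.7 in DKO, where control 4 lay above 2 DKO arrays. Its Dhh KO signals were 327.3, 365.6, 467.9 and 337.8, its Ihh KO signals 360, 347.8, 430.1 and 337.6, and those of controls 5 to 8 216.1, 397.5, 389.8 and 283. The Acvr1b differences were 0.24, 0.23 and 0.26 in Dhh KO, Ihh KO and DKO (SE 0.17, 0.17 and 0.19), with adjusted p = 0.662, 0.57 and 0.543. Dhh KO and Ihh KO share their controls, so their values are not independent of each other.

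**Figure D2:**
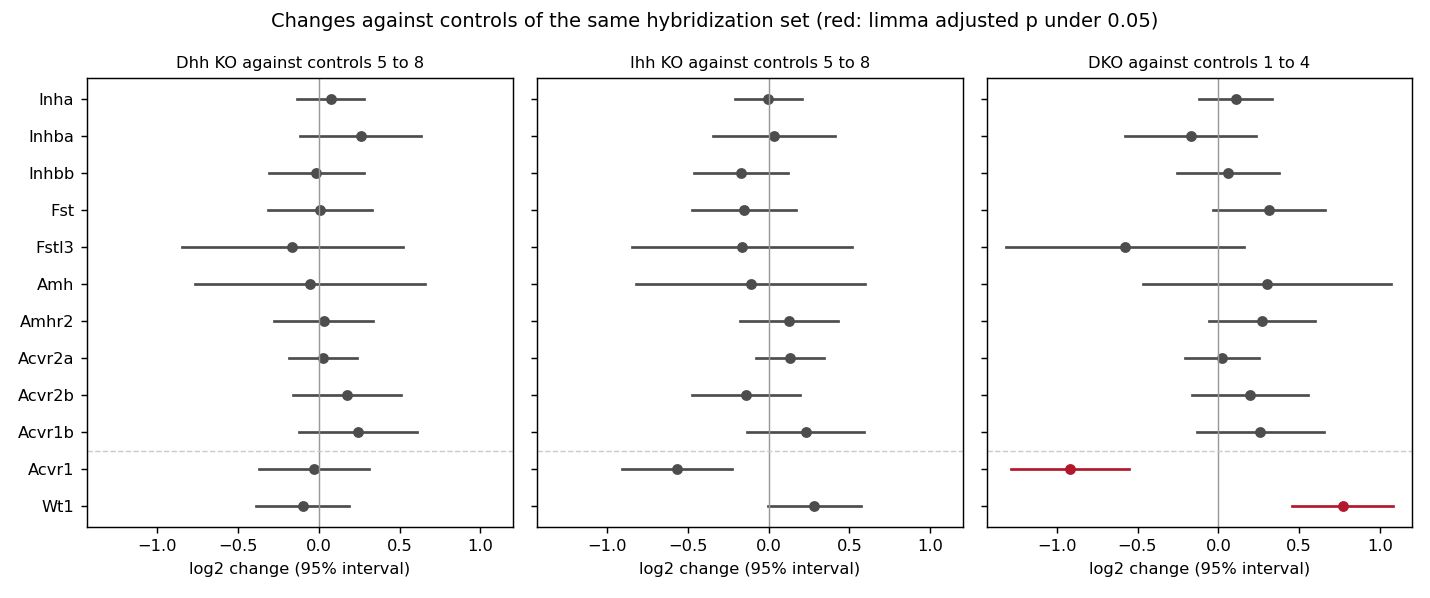
Log2 change with its 95% interval (x axis) of the 10 members and, under the dashed line, of Acvr1 and Wt1, in Dhh KO and Ihh KO against controls 5 to 8 and in DKO against controls 1 to 4. Every member's interval includes 0, the widest being those of Fstl3 and Amh, and the red points, with an adjusted p under 0.05, are Acvr1 at -0.92 and Wt1 at 0.77 in DKO.

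The single knockouts were then set against each other, which asks whether loss of either ligand left the members at different levels. Again 0 of 10 members were called, where 0% of all genes were, and 0 members reached an unadjusted p under 0.05, against 1440 genes or 11.6%. No member had groups that did not overlap, against 5.74% of all genes. Differences of Ihh KO from Dhh KO ran from -0.32 in Acvr2b (SE 0.16, adjusted p = 0.452) to 0.11 in Acvr2a (SE 0.10, adjusted p = 0.71). On the other Acvr2b probe sets the difference was 0.03 (SE 0.40) and -0.34 (SE 0.19). Without the array labelled Ihh KO 4, 0 of 10 members were called in Ihh KO and 0 in Ihh KO against Dhh KO, against 0.388% and 0.21% of all genes, and 0 and 1 reached an unadjusted p under 0.05, against 16% and 15.4%; the 1 was Acvr2b at -0.37 (unadjusted p = 0.0455, adjusted p = 0.313). The Ihh KO changes not yet given were then -0.08 for Inha, 0.02 for Inhba, -0.18 for Fst, -0.21 for Amh, -0.20 for Acvr2b and 0.27 for Acvr1b, and adjusted p over the 10 members ran from 0.354 to 0.992.

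Whether the double knockout moved the members more than a single one was tested as a difference of changes, each taken against the controls of its own set. Called were 0 of 10 members against Dhh KO and 0 against Ihh KO, where 0.606% and 0.396% of all genes were, and 0 members reached an unadjusted p under 0.05 in either (16.1% and 17.4% of all genes). The difference from the Dhh KO change ran from -0.43 in Inhba (SE 0.26, adjusted p = 0.44) to 0.35 in Amh (SE 0.50, adjusted p = 0.77). That from the Ihh KO change ran from -0.41 in Fstl3 (SE 0.48) to 0.47 in Fst (SE 0.23, unadjusted p = 0.0525, adjusted p = 0.291), or from -0.21 to 0.51 over the members without the array labelled Ihh KO 4, again with 0 called. In the fit with matched control numbers as a block the Fst difference from the Ihh KO change was 0.56 (adjusted p = 0.0447), and it was the 1 member called.

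These counts depended on keeping the hybridization sets apart. With all 8 controls in 1 group, which sets DKO directly against arrays of the other set, 5 members were called in DKO against Dhh KO and 4 in DKO against Ihh KO, where 3220 and 2562 genes of 12379 were. Against Dhh KO these were Inhba at -0.54, Fst at 0.64, Amh at 1.16, Amhr2 at 0.65 and Acvr1b at 0.90, with adjusted p from 0.0172 to 0.044. Against Ihh KO they were Fst at 0.80, Amh at 1.22, Amhr2 at 0.56 and Acvr1b at 0.91, with adjusted p from 0.00847 to 0.0419.

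The same genotype in the other set gives the size of that shift. Controls 5 to 8 differed from controls 1 to 4 in 3 of 10 members, where 28.5% of all genes were called, and in 6 at an unadjusted p under 0.05 (39.5% of all genes), and did not overlap them in 4 members, Inha, Amh, Amhr2 and Acvr1b, where 27.6% of all genes did not. Acvr1b was lower by -0.88 (SE 0.17, adjusted p = 0.00107), with means of 322 ± 87.6 and 583 ± 70.7 (SD, n = 4 each), and it was called in every alternative that was run except a 2-fold minimum. Amhr2 differed by -0.41 (SE 0.14, adjusted p = 0.0398) and Acvr2b by 0.45 (SE 0.16, adjusted p = 0.0395), but under quantile normalization neither was called (adjusted p = 0.0653 and 0.114). Amh differed by -0.81 (SE 0.34, adjusted p = 0.0806), with means of 85.5 ± 18 and 158 ± 46.1. These tests treat the 8 controls as separate samples.

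Probe sets of 1 gene shifted differently between the sets of controls. All 3 Amhr2 probe sets were lower in controls 5 to 8, by -0.41, -0.76 and -0.60, while the 2 Fst probe sets differed by -0.34 and 0.10. The main Acvr2a probe set differed by 0.14 (adjusted p = 0.307 among all probe sets) and the second by 0.74 (adjusted p = 7.7e-05). Deviations from the group mean matched between controls 1 and 5, 2 and 6, 3 and 7, and 4 and 8, with correlations across genes of 0.538 to 0.771, although the labels number them as 8 samples. Within those pairs Amh differed by -0.99 to -0.67 and Amhr2 by -0.49 to -0.25, each lower in 4 of 4 pairs. The labels do not say whether the same RNAs were hybridized in both sets, which was not tested. With a correlation of 0.654 shared by matched controls, limma called 6 members between the sets, where 6772 of 12379 genes were: Inha, Fst and Amh, with adjusted p = 0.00493, 0.00204 and 0.00168, beside Amhr2, Acvr2b and Acvr1b.

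**Figure D3:**
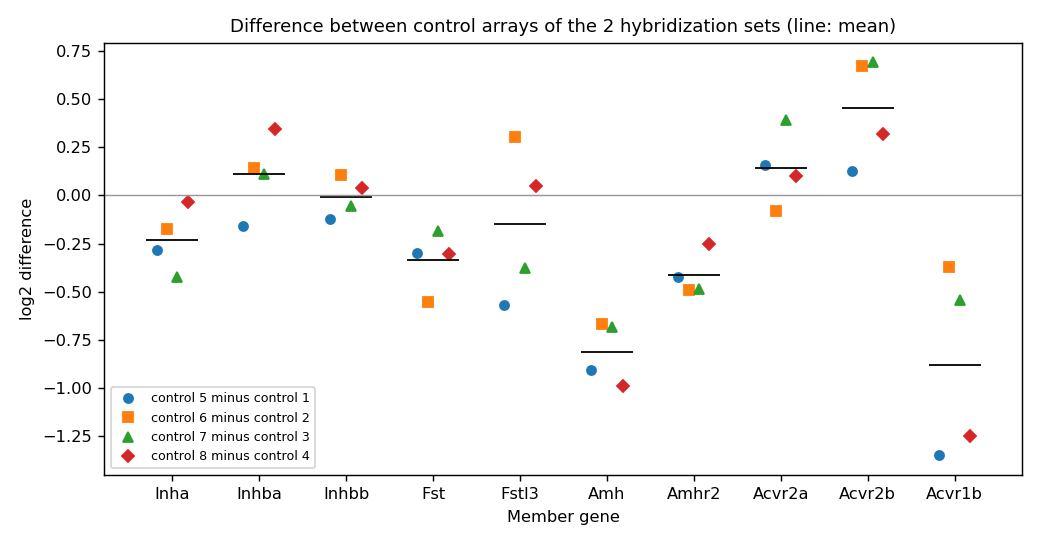
Log2 difference (y axis) of each member between control arrays of the 2 hybridization sets, for the 4 pairs whose values resembled each other, a match found in the data and not given by the labels; symbols are pairs and lines are means. Inha, Fst, Amh, Amhr2 and Acvr1b are below 0 in every pair and Acvr2b is above 0 in every pair.

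Other genes of these pathways were taken from 3 lists. Of 18 further activin pathway genes, among them the Smad2, Smad3 and Smad4 transducers and the coreceptor Tgfbr3, 11 were tested and 0 were called in each mutant group, with medians of -0.199 in Dhh KO, 0.016 in Ihh KO and 0.028 in DKO. In DKO the smallest p among them was that of Smad3, at 0.25 (SE 0.11, unadjusted p = 0.0335, adjusted p = 0.257). All 8 TGF-beta ligands, receptors and latency proteins were tested and 0 were called, with medians of 0.086, 0.163 and -0.169. Of 14 AMH signal transducers and regulators 13 were tested: 0 were called in either single knockout, and in DKO 1 fell, Acvr1, and 1 rose, Wt1, where 1.45% of all genes were called lower and 1.57% higher. Ihh KO medians of the AMH list were -0.025 with and -0.03 without the array labelled Ihh KO 4, where Acvr1 was called lower; without it those of the activin and TGF-beta lists were 0.029 and 0.197, with 0 called.

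Acvr1 encodes ALK2, a type I receptor that AMH and bone morphogenetic proteins use and that passes their signal to Smad1 and Smad5. On controls 1 to 4 its signals were 1064, 947.7, 1102 and 1034, and on the DKO arrays 554.5, 611.7 and 478.3, all below every control. The change was -0.92 (SE 0.17, adjusted p = 0.00713), and the other two Acvr1 probe sets were also lower on all 3 DKO arrays, by -0.86 (adjusted p = 0.0419 among all probe sets) and -0.93 (adjusted p = 0.123). Without DKO 3, the lowest array, the change was -0.82 (adjusted p = 0.0544) and no longer passed. It fell while its partner Amhr2 was at 0.27 and the other AMH type I receptor on the list, Bmpr1a, at 0.08 (SE 0.07, adjusted p = 0.618).

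In Ihh KO the Acvr1 result rested on the array labelled Ihh KO 4. Signals were 851.8, 818.1 and 733.4 on Ihh KO 1 to 3 and 1487 on that array, beside 1227, 1343, 1499 and 1495 on controls 5 to 8 and 1246, 1302, 1372 and 1533 in Dhh KO. With all 4 arrays the change was -0.57 (SE 0.16, adjusted p = 0.162), and without that array -0.79 (SE 0.11, adjusted p = 0.00343), all 3 arrays then lying below every control. Dhh KO stood at -0.03 (SE 0.16, adjusted p = 0.971). The difference between the single knockouts was -0.54 (adjusted p = 0.292) with the array and -0.76 (adjusted p = 0.0055) without it, and the DKO change differed from the Dhh KO change by -0.89 (adjusted p = 0.0809, or 0.0106 without the array) and from the Ihh KO change by -0.35 (adjusted p = 0.451, or -0.13 with adjusted p = 0.701 without the array). Corpus luteum markers moved with the same arrays: their median level relative to the controls of the set was 2.101, 2.672 and 2.821 for Ihh KO 1 to 3 but -0.083 for that array, and controls 5 to 8 spanned -2.942 to 2.182. Their median change in Ihh KO was 1.884, and 2.634 without that array, with 0 of 5 called in both, and their part in the Acvr1 result was not tested.

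Wt1 encodes a transcription factor of granulosa cells and of the ovarian surface that acts on the Amhr2 promoter in other settings. It was at 1388, 1124, 1033 and 1432 on controls 1 to 4 and at 1942, 2313 and 2078 in DKO, all above every control (0.77, SE 0.15, adjusted p = 0.00767). Centring each array on its median left 0.75 but no call (adjusted p = 0.123), as did a fit of the groups compared alone (adjusted p = 0.0523). In Ihh KO it differed by 0.28 (SE 0.14, adjusted p = 0.37), or 0.36 (SE 0.14, adjusted p = 0.232) without the array labelled Ihh KO 4, and in Dhh KO by -0.10 (SE 0.14).

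**Figure D4:**
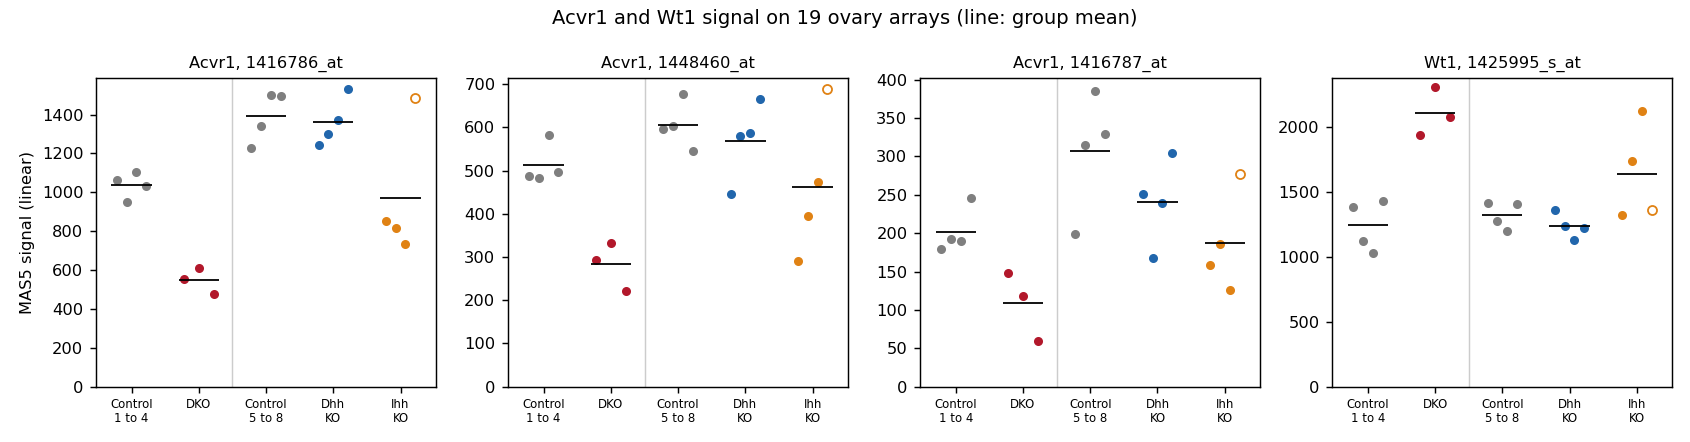
MAS5 signal (linear scale, from 0) of the 3 Acvr1 probe sets and of Wt1 on the 19 arrays by group; points are arrays, lines are group means and the open circle is the array labelled Ihh KO 4. DKO lies below controls 1 to 4 in each Acvr1 panel and above them for Wt1, and on the main Acvr1 probe set the open circle, at 1487, lies with controls 5 to 8.

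Markers of the cells that make or see these hormones were read beside the results. Granulosa markers, 11 of 13 tested, had 0 calls in each mutant group and medians of 0.061, -0.074 (-0.035 without the array labelled Ihh KO 4) and 0.083 in Dhh KO, Ihh KO and DKO; their median level per array, relative to the controls of the set, was -0.048 to 0.196 in DKO and -0.133 to 0.172 on controls 1 to 4. Oocyte markers, 10 of 11 tested, had 0 calls and a DKO median of 0.353. Other cell types did move with DKO: of theca and steroidogenic markers 3 of 6 tested were called lower (median -1.395), of smooth muscle markers 5 of 8 lower (-1.402), of endothelial markers 1 of 6 lower (-0.569), of oviduct epithelium markers 4 of 6 higher (2.131) and of mast cell markers 2 of 3 higher (2.755). The median level of the theca markers was -2.437 to -0.756 on DKO arrays against -0.27 to 0.149 on controls 1 to 4, that of the smooth muscle markers -2.175 to -0.306 against -0.16 to 0.182, and that of the oviduct markers 1.096 to 3.186 against -0.397 to 0.264. Surface epithelium markers, which include no Wt1, had 0 of 6 called and a median of 0.846. Macrophage and corpus luteum markers had 0 of 6 and 0 of 5 called, with medians of 0.517 and -0.591. The part of these cell types in the values of Acvr1, Wt1 and the members was not tested.

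RNA quality was read from the 3′ over 5′ ratio of Gapdh. It was 1.75 ± 0.0506 on controls 1 to 4 (SD, n = 4) and 1.72 ± 0.0556 in DKO (n = 3), and 1.94 ± 0.0534 on controls 5 to 8 against 2.52 ± 0.311 in Dhh KO and 2.07 ± 0.215 in Ihh KO. The Dhh KO arrays, at 2.08 to 2.79, thus all exceeded their controls, at 1.89 to 2.01, and its part in the Dhh KO values was not tested.

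Genes whose pattern was most like a member's were sought over the 19 arrays by Pearson's r of log2 levels minus the mean of the controls of the set, as a description without a test. The arrays share groups and sets, and these are the highest of the genes searched, out of 12379 tested. For Inha they were Fbln1 (0.825), Ube2c (0.759), Hmgb2 (0.756), Hsp90b1 (0.749) and Atp1b3 (0.74). Inhbb was most like Rab26os (0.9), Snrnp70 (0.885), Manf (0.842), Zfp3 (0.83) and Pfkl (0.794), and Amh most like Ciao3 (0.761), Hdac6 (0.758), Izumo1r (0.739), Rbmxl1 (0.737) and Foxp4 (0.734). Members and predicted genes known by a clone, locus or Gm number were left out of this search, and nothing about shared function follows from the resemblance.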

How the data were processed

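From each ovary RNA, purified by PicoPure, 50 ng was amplified (WT-Ovation Pico) and labelled with biotin, per the labels' protocols. The authors deposited linear intensities, 1 for each probe set on each array, made with MAS5 according to the submitters' processing notes, which name no version; their mean after trimming 2% at each end was 500 on every array. Values were not normalized again. The tests used log2(signal + 7.02), 7.02 being the 10th percentile of all signals, and the highest-mean single-gene probe set of each gene above the 40th percentile of mean log2 (6.26), in R 4.3.3 with limma 3.58.1 (lmFit, eBayes with trend, two-sided, 5 group means over 19 arrays, both control sets kept apart). There were 6 planned comparisons, and the controls were compared between sets afterwards. Probe set checks adjusted over 23341 probe sets. Of 45101 probe sets, 34945 named 1 gene, 932 several and 9211 none, in GEO's platform annotation; the other 13 were Affymetrix control probe sets that list a gene and were left out. The script was tested on simulated data. Members and gene lists were chosen with earlier results of these data known. Named genes were all members, Dhh and Ihh, up to 4 called genes per list and comparison, and the 5 genes most like Inha, Inhbb and Amh; Smad3 and Bmpr1a were named after their values were seen. Alternatives covered scaling, pseudocount, filter, probe set choice, design, moderation and each array left out. Figures were drawn in Python 3.11.15 with matplotlib 3.10.9.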

Additional observations from a re-analysis of the deposited data

Results flagged for a closer look

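In 4 of 56 groups of 4 arrays, 1 array stood apart from the other three by Dixon's test; chance alone does so in about 1 group in 20. Inhbb on control 6 was 7103 against 8100 to 8317 on controls 5, 7 and 8. Fst on the array labelled Ihh KO 1 was 2937 against 3643 to 3784 on the rest of that group. Fstl3 on the array labelled Ihh KO 4 was 298.3 against 161.6 to 173.8 on Ihh KO 1 to 3. Dhh on the same array was 2.959 against 526.6 to 708.8.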

How the results depend on the processing

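No member was called against its controls under any of 35 alternatives in Dhh KO and 35 in Ihh KO (lowest adjusted p-values 0.195 and 0.252), and 1 of 36 in DKO called 1 member, Fst (0.0343); signs changed in 22 of 348, 20 of 348 and 9 of 358 values, and the cause was not tested. With all 8 controls pooled 5 members were called in DKO against Dhh KO and 4 against Ihh KO. Between the sets of controls 3 members were called, 5 with median centring, 6 with a correlation of 0.654 shared by matched controls, 0 with a 2-fold minimum, and 1 to 4 with an array left out (1 without control 1, 2, 6 or 7). Changed signs were as follows. Quantile normalization gave Inha -0.0279 and Fst -0.0581 in Dhh KO, Inhba -0.0822 and Amh 0.122 in Ihh KO, and Acvr1b -0.0806 and -0.0802 for the DKO change against the Dhh KO and Ihh KO changes. Median centring gave Inha 0.148, Amh 0.0392 and Acvr2b 0.0094 in Ihh KO, Acvr2a -0.0032 in DKO, Acvr1b -0.0183 and -0.143 in those same differences of changes, and Amhr2 -0.0303 against the Ihh KO change. It moved the median of all genes by 0.15 in Ihh KO, 0.138 in Ihh KO against Dhh KO, -0.173 in DKO against Ihh KO and -0.337 between the sets of controls. The mean of probe sets gave Amhr2 -0.0144 in Dhh KO and Acvr2a -0.0086 in Ihh KO against Dhh KO. Pooled controls gave Inha -0.0424, Fst -0.162, Amhr2 -0.176, Acvr1b -0.196 and Acvr1 0.181 in Dhh KO, Amhr2 -0.0795, Acvr2b 0.0857 and Acvr1b -0.21 in Ihh KO, and Acvr2a -0.0512 and Acvr2b -0.0312 in DKO. Array weights gave Inhbb 0.0074 in Dhh KO, Inha 0.0368 in Ihh KO and Inhbb -0.0861 in DKO. With an array left out the range was, in Dhh KO, Acvr1 -0.0865 to 0.0135, Acvr2a -0.0505 to 0.0948, Amh -0.241 to 0.249, Amhr2 -0.0376 to 0.0984, Fst -0.0946 to 0.142 and Inhbb -0.0744 to 0.0351. In Ihh KO it was Acvr2b -0.219 to 0.0026, Amh -0.326 to 0.218, Amhr2 -0.0039 to 0.232, Inha -0.0773 to 0.0538 and Inhba -0.0545 to 0.12. In DKO it was Acvr2a -0.0257 to 0.0729, Inhba -0.322 to 0.0555 and Inhbb -0.15 to 0.164, and for Acvr1b -0.0972 to 0.189 against the Dhh KO change and -0.0831 to 0.203 against the Ihh KO change.

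With the replicate number as a block 0 members were called in DKO, where 365 genes were, and 0 in Ihh KO against Dhh KO; Acvr1 was at -0.82 (adjusted p = 0.0247), and no call of Acvr1 or Wt1 changed. The numbers share nothing the labels explain. Same-numbered deviations correlated at 0.158, 0.274 and 0.074 between controls 1 to 4 and DKO, and at -0.298 to 0.156 between the single knockouts. Across sets they correlated at 0.204, 0.133 and 0.177 between Dhh KO and DKO, and at -0.032, 0.169 and -0.229 between Ihh KO and DKO. The correlations of controls 1 to 4 were 0.289, 0.098, 0.43 and 0.216 with Dhh KO, and 0.086, 0.192, -0.247 and 0.048 with Ihh KO. By the labels' numbers controls 5 to 8 share none with the mutants. With the number of the control they resemble as a replicate block, chosen after seeing the data, 1 member was called in DKO and 1 for the DKO change against the Ihh KO change, Fst in both, and 0 in Dhh KO and 0 in Ihh KO. Over all genes the 374 calls in DKO became 79 in a fit of the groups compared alone, 700 with array weights, 225 with median centring, 246 at the stricter filter, 594 with pooled controls, 692 with matched control numbers and 128 to 503 with an array left out (128 without DKO 3). The 2 calls in Ihh KO became 66 with array weights, 0 to 58 with an array left out (58 without control 8) and 0 to 8 under the others.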
